A study of Mus musculus with 12 samples.

Results

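The transcripts of 6 potassium channel genes were followed in mouse bone marrow-derived macrophages (BMDMs) stimulated with the beta2-adrenergic receptor (B2AR) agonist fenoterol. The genes are *Kcnj2*, *Kcnn4*, *Kcna3*, *Kcnk6*, *Kcnk13* and *Kcnab2*, that is, 6 of the 53379 genes in the count table. They were taken by name around *Kcnj2*, which was picked because its transcript fell after stimulation, so the changes of *Kcnj2* are given as a description without a test. The other 5 genes were tested, since the choice rested on the fall of *Kcnj2*, but they too were named with earlier results of these data known. All 6 passed the filter on low counts that left 12386 genes in the tests.

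BMDMs were grown from the femur and tibia marrow of 4 male adult C57Bl/6J mice in L929 cell-conditioned medium, which supplies macrophage growth factor. The cells of every mouse were split over an untreated culture and cultures stimulated for 1 h or 4 h with 1 μM fenoterol in unchanged medium, so each group holds 1 library from each of mouse 1 to mouse 4. Stranded mRNA libraries were sequenced with reads of 50 bases, with library totals of 14580533 to 22580692 counts (untreated), 18288911 to 20549801 (1 h) and 18446470 to 24153284 (4 h). Both time points are compared with the same untreated libraries, so these comparisons are not independent of each other. The RNA is from bulk cultures, in which fewer cells of a type and less RNA per cell cannot be told apart. The 7 macrophage markers examined, among them *Adgre1* and *Csf1r*, summed to 31934 to 39857 CPM (counts divided by the TMM-adjusted library size and put on a common scale) over the 12 libraries. Markers of other cells were far lower. Neutrophil markers summed to 17.5 to 34.5 CPM, stromal markers to 11.6 to 32.6 and B cell markers to 6.43 to 11.7. Only 4 of 6 neutrophil, 2 of 5 stromal and 1 of 4 B cell markers were abundant enough to be tested. None of these was called (adjusted p under 0.05) in any comparison. Of all genes, 20.1% were called at 1 h, 40.0% at 4 h and 38.5% between 4 h and 1 h. So few genes cannot show that the make-up of the cultures was stable.

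Potassium channels let potassium leave the cell down its gradient, which pulls the membrane towards negative voltages and keeps up the driving force for calcium entry. Inward rectifiers pass current best near rest, voltage-gated channels open on depolarization, calcium-activated channels open when cytosolic calcium rises, and channels of the two-pore-domain family carry background leak. In macrophages, loss of intracellular potassium is also a well-known trigger of the NLRP3 inflammasome, the complex that activates caspase-1.

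*Kcnj2* (ENSMUSG00000041695) encodes Kir2.1, the inward rectifier that is classically associated with the macrophage resting potential. In GENCODE M21 on GRCm38 the gene lies at chr11:111066164-111076821 on the plus strand, with 2 exons. *Kcna3* (ENSMUSG00000047959, chr3:107036169-107038070, plus strand, 1 exon) encodes the voltage-gated channel Kv1.3. *Kcnn4* (ENSMUSG00000054342, chr7:24370263-24386690, plus strand) encodes KCa3.1, a calcium-activated channel gated through bound calmodulin. The bases before the starts of these 3 genes are printed because their transcripts moved most among the members, in different directions and at different times. Each stretch holds the 250 bases upstream of the RefSeq start on GRCm38.p6, written 5′ to 3′ on the strand of the gene, with the E-box CACGTG in capitals. They span chr11:111065914-111066163 for *Kcnj2*, chr7:24370013-24370262 for *Kcnn4* and chr3:107035912-107036161 for *Kcna3*, all on the plus strand.
Kcnj2: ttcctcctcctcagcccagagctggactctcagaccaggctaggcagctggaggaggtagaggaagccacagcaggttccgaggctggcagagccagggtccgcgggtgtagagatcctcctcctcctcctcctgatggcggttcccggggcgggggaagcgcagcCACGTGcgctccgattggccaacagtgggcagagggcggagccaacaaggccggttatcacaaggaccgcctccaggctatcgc
Kcnn4: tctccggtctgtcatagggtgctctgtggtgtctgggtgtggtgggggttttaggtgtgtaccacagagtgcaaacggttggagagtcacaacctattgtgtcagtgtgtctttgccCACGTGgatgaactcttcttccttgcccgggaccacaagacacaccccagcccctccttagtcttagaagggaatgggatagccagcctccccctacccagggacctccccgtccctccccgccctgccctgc
Kcna3: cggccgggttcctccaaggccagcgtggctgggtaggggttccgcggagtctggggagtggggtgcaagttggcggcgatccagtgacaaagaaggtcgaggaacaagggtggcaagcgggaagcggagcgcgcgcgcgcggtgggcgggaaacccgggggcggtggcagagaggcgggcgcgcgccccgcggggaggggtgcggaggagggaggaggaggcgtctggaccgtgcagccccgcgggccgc

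The cyclic AMP response element TGACGTCA, which is bound by the B2AR-activated factor CREB, was searched on both strands, as were its half-site TGACG, the AP-1 site TGANTCA, the E-box CACGTG, the GC box GGGCGG, the CCAAT box CCAAT, the TATA box TATAAA and an NF-kB motif. The full element contains the half-site. RefSeq gave 7 such windows for 5 of the 6 members, and none was held for *Kcnk6*. None of the 7 windows contained TGACGTCA, which occurred in 1.55% of the 32841 windows of this length. The *Kcnj2* window held 1 E-box, 84 to 79 bases before the start, and the *Kcnn4* window held 1 at 133 to 128 bases, whereas 6.02% of all windows held one. The *Kcnn4* window also held 1 NF-kB motif, found in 7.25% of all windows. The *Kcna3* window held no E-box, no half-site and no AP-1 site. It contained 2 GC boxes, as did the *Kcnj2* window, and the *Kcnn4* window held 1, with 32.7% of all windows holding one. The *Kcna3* window was the richest of the 7 in G and C at 74.4%, against a median of 52.4% over all windows. The first of the 3 *Kcnab2* windows (chr4:152477550-152477799, minus strand) held 2 half-sites and 5 CCAAT boxes, with 17.8% of all windows holding a half-site and 33.9% a CCAAT box. The *Kcnj2* window held 1 CCAAT box, 71 to 67 bases before the start. The *Kcnk13* window held none of the motifs searched. A match to these letters is a description of the window, and nothing was measured here on the binding of any factor.

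The transcript of *Kcnj2* was low in all stimulated libraries. Normalized counts, which are counts scaled to a common library size, were 926, 649, 735 and 622 in untreated BMDMs of mouse 1 to mouse 4. At 1 h they were 49.3, 68.7, 61.8 and 44.1, and at 4 h they were 75.1, 95.0, 99.0 and 108. The highest stimulated library therefore lay far below the lowest untreated one. The deposited counts behind these values were 484 to 1070 in untreated libraries and 43 to 138 in stimulated ones, so the low levels were still above the 3 counts taken as the detection limit.

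Means were 733 ± 138 (SD, n = 4) in untreated BMDMs, 56.0 ± 11.3 after 1 h and 94.2 ± 13.8 after 4 h. The fitted level at 1 h was 7.62% of the untreated level, a log2 fold change of -3.71 ± 0.17 (SE), and within single mice the log2 change ran from -4.18 to -3.20. At 4 h it was 12.9% of untreated, with a log2 fold change of -2.96 ± 0.16. The level at 4 h was above that at 1 h by 0.76 ± 0.18 on the log2 scale, and it was higher in 4 of 4 mice. Among the 12386 genes tested, *Kcnj2* had the most negative log2 fold change at 1 h. The next were sought only among genes with a mean of at least 50 normalized counts, an adjusted p under 0.05 and a fall in 4 of 4 mice. These were the chemokine gene *Ccl3* (-3.65) and the transcription factor genes *Irf4* (-3.53) and *Egr2* (-3.50). At 4 h *Kcnj2* ranked 23 among the 12386 genes by this measure of log2 fold change.

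**Figure D1:**
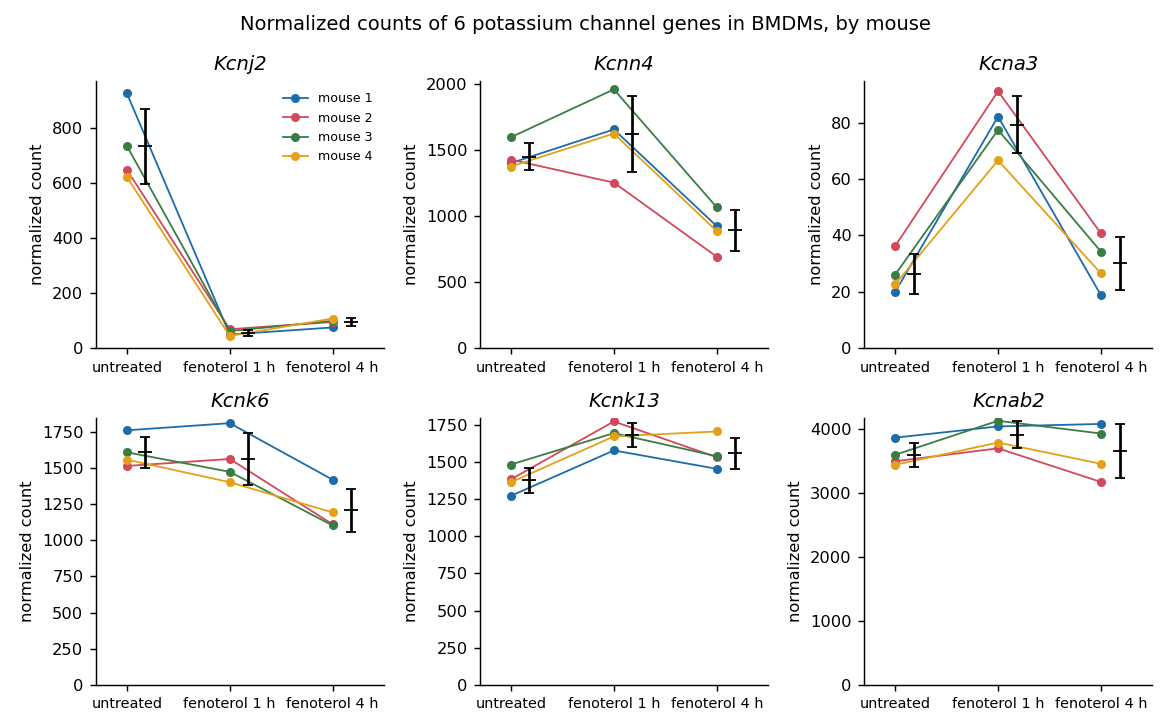
Normalized counts (y axis, from 0) of the 6 genes in untreated BMDMs and after 1 h and 4 h with fenoterol (x axis). Coloured points joined by lines are the libraries of 1 mouse, and the black marks are the mean ± SD of 4 libraries. *Kcnj2* stayed between 44.1 and 108 in all stimulated libraries, *Kcna3* was high at 1 h only, and *Kcnn4* and *Kcnk6* were lowest at 4 h.

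Of the other 5 genes, 2 passed the threshold of an adjusted p under 0.05 at 1 h, both higher, by edgeR's quasi-likelihood test with Benjamini-Hochberg adjustment over all genes. Over all genes tested, the share called at 1 h was 20.1%, with 10.0% higher and 10.1% lower. At 4 h, 3 of the 5 passed, with 1 higher and 2 lower, while 40.0% of all genes were called, 19.7% higher and 20.4% lower. Between 4 h and 1 h, 3 of the 5 were called and all 3 were lower at 4 h, against 38.5% of all genes called, with 19.8% lower. The libraries of the groups compared did not overlap for 2 of the 5 genes in each comparison, and for 23.0% of all genes at 1 h, 37.6% at 4 h and 35.9% between the time points. The genes thus did not move as a block, and each is described by its role.

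*Kcna3*, the voltage-gated member, was higher at 1 h and overlapped with the untreated range at 4 h. Its normalized counts were 19.9, 36.2, 26.0 and 22.6 in untreated BMDMs, 82.2, 91.2, 77.5 and 66.7 at 1 h, and 18.8, 40.7, 34.2 and 26.5 at 4 h. All 4 libraries at 1 h lay above all untreated and all 4 h libraries, whereas the untreated and 4 h libraries overlapped. At 1 h *Kcna3* was 3.07-fold higher than in untreated BMDMs (log2 fold change 1.62 ± 0.24 SE, adjusted p = 0.00019, higher in 4 of 4 mice). At 4 h the log2 fold change from untreated was 0.22 ± 0.26 (adjusted p = 0.542), and from 1 h to 4 h *Kcna3* fell by 1.40 ± 0.23 on the log2 scale (adjusted p = 0.00028). Counts were low, with at most 81 deposited counts in a library. *Kcna3* is best known from T cells. The 6 T cell markers summed to 28.6 to 38.8 CPM in untreated BMDMs, 28.9 to 40.1 after 1 h and 21.5 to 37.5 after 4 h. Of these markers, *Cd3d*, *Cd3e*, *Cd3g* and *Cd8a* had 3 counts or fewer in every library, and only *Cd4* was abundant enough to be tested, with a log2 fold change of 0.06 at 1 h (adjusted p = 0.836).

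*Kcnn4*, the calcium-activated member, was lower at 4 h. Its normalized counts were 1400, 1426, 1595 and 1374 in untreated BMDMs, 1654, 1252, 1957 and 1623 at 1 h, and 922, 691, 1064 and 885 at 4 h. The libraries at 4 h did not overlap with those of either other group, while untreated and 1 h libraries overlapped, mouse 2 alone being lower at 1 h. The log2 fold change at 1 h was 0.16 ± 0.13 (SE, adjusted p = 0.445). At 4 h *Kcnn4* stood at 61.5% of the untreated level (log2 fold change -0.70 ± 0.13, adjusted p = 0.00057, lower in 4 of 4 mice) and at 54.9% of the 1 h level (log2 fold change -0.86 ± 0.13, adjusted p = 0.00012). Within each mouse the log2 change from 1 h to 4 h was -0.88 to -0.84, a far narrower range than the spread of levels between mice.

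The 2 two-pore-domain members had changes of opposite sign at 4 h. *Kcnk6* (ENSMUSG00000046410, chr7:29221926-29232515, minus strand) encodes TWIK-2, a channel known for potassium efflux in macrophages. Its normalized counts were 1761, 1514, 1609 and 1558 in untreated BMDMs, 1810, 1563, 1474 and 1402 at 1 h, and 1419, 1110, 1102 and 1193 at 4 h. All 4 h libraries lay below all untreated ones, although mouse 1 at 4 h was above mouse 4 at 1 h. The log2 fold change was -0.04 ± 0.09 at 1 h (SE, adjusted p = 0.803), -0.42 ± 0.09 at 4 h (adjusted p = 0.0020) and -0.37 ± 0.09 between 4 h and 1 h (adjusted p = 0.0051), and the 4 h level was 74.8% of untreated. Macrophage markers also changed at 4 h, when *Kcnk6* and *Kcnn4* were lower. Of the 7, 4 were called lower at 4 h. These were *Mertk* (log2 fold change -1.51) and *Csf1r*, *Cd68* and *Adgre1* (-0.26 to -0.21). Another 2 were called higher (*Itgam* 0.42, *Fcgr1* 0.72). Over all genes tested, 20.4% were called lower and 19.7% higher at 4 h. The markers' sum ranged over 37481 to 39441 CPM in untreated and 31934 to 36542 CPM in 4 h libraries. The part of these marker changes in the values of *Kcnk6* and *Kcnn4* was not tested.

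*Kcnk13* (ENSMUSG00000045404, chr12:99964499-100062682, plus strand) encodes THIK-1, a leak channel best known from microglia. Its normalized counts were 1272, 1383, 1483 and 1363 in untreated BMDMs, 1577, 1772, 1693 and 1672 at 1 h, and 1453, 1531, 1538 and 1705 at 4 h. The 1 h libraries lay above all untreated ones, and the 4 h libraries overlapped with both groups. *Kcnk13* rose at 1 h by a log2 fold change of 0.29 ± 0.06 (SE, adjusted p = 0.0041, higher in 4 of 4 mice). At 4 h the log2 fold change was 0.18 ± 0.06 (adjusted p = 0.033, higher in 4 of 4 mice), which passed the threshold narrowly. That call was lost when any 1 of 5 libraries was left out. The adjusted p was then 0.106 without untreated mouse 1, 0.058 without untreated mouse 2, 0.088 without untreated mouse 4, 0.053 without 4 h mouse 3 and 0.109 without 4 h mouse 4. The difference between 4 h and 1 h was -0.11 ± 0.06 (adjusted p = 0.195).

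The ratio of *Kcnk13* to *Kcnk6* counts does not depend on how the libraries are scaled, and was looked at after the values of both genes were seen. It was 0.722, 0.913, 0.921 and 0.875 in untreated BMDMs of mouse 1 to mouse 4, then 0.871, 1.13, 1.15 and 1.19 at 1 h, and 1.02, 1.38, 1.40 and 1.43 at 4 h. In each mouse the ratio was higher at 1 h than untreated and higher again at 4 h, and mouse 1 had the lowest ratio of its group each time.

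*Kcnab2* (ENSMUSG00000028931, chr4:152390742-152477871, minus strand) encodes Kvβ2, a cytosolic auxiliary subunit of voltage-gated channels of the Kv1 family, to which Kv1.3 belongs. Its normalized counts were 3864, 3495, 3596 and 3439 in untreated BMDMs, 4040, 3698, 4128 and 3788 at 1 h, and 4079, 3172, 3929 and 3456 at 4 h. The 3 groups overlapped, and mouse 2 or mouse 4 was lowest in each. The log2 fold change was 0.12 ± 0.07 at 1 h (SE, adjusted p = 0.309), 0.02 ± 0.07 at 4 h (adjusted p = 0.840) and -0.10 ± 0.07 between the time points (adjusted p = 0.338). No change of *Kcnab2* was called in any of the 3 comparisons.

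**Figure D2:**
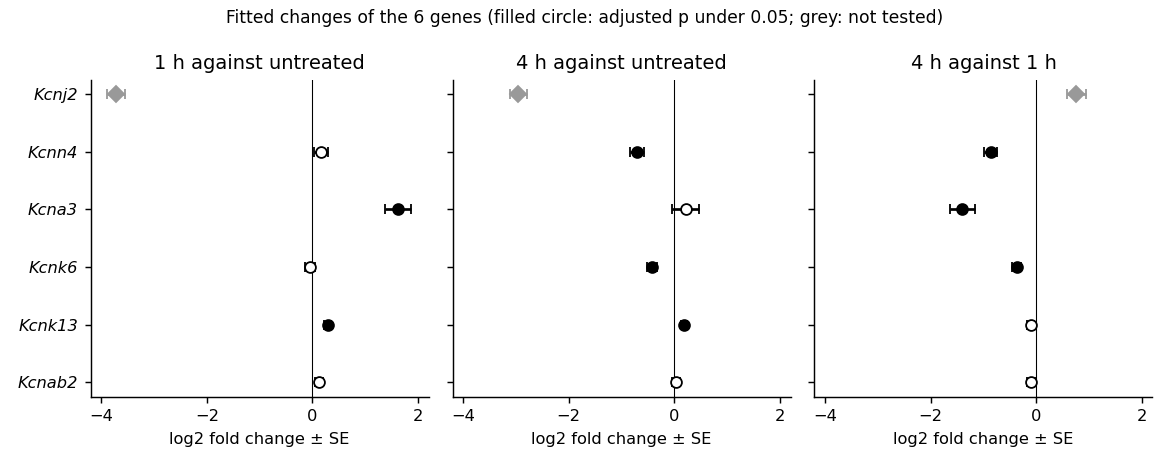
Log2 fold change (x axis) ± SE of the 6 genes (y axis) in the 3 comparisons, from 1 fit over 12 libraries. Filled circles passed an adjusted p of 0.05, open circles did not, and the grey diamonds of *Kcnj2* were not tested. *Kcna3* was called at 1 h (1.62) but not at 4 h against untreated (0.22), and *Kcnn4* (-0.70) and *Kcnk6* (-0.42) were called lower at 4 h.

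Levels of different genes were compared per length, as FPKM, the scaled count divided by the exon length of the gene. In untreated BMDMs *Kcnab2* was the most abundant member at 32.9 ± 1.73 FPKM (SD, n = 4), followed by *Kcnk13* at 22.5 ± 1.42, *Kcnk6* at 19.8 ± 1.32, *Kcnn4* at 14.4 ± 1.00, *Kcnj2* at 6.87 ± 1.29 and *Kcna3* at 0.702 ± 0.191. Each neighbouring pair in this order was separated in all libraries, except *Kcnk13* and *Kcnk6*, whose ranges overlapped. At 1 h *Kcnj2* was the lowest member at 0.524 ± 0.105 FPKM, below *Kcna3* at 2.13 ± 0.274 in every library. *Kcnk6* at 19.2 ± 2.19 and *Kcnn4* at 16.2 ± 2.88 then overlapped.

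At 4 h *Kcnj2* (0.882 ± 0.129 FPKM) and *Kcna3* (0.806 ± 0.255) overlapped at the bottom of the order. *Kcnk13* (25.5 ± 1.73), *Kcnk6* (14.8 ± 1.81) and *Kcnn4* (8.88 ± 1.53) were separated from each other in all libraries. These orders depend on the length used. With the coding length alone, *Kcnk6* stood at 87.5 and *Kcnk13* at 57.7 FPKM in untreated BMDMs, which turns their order round, and *Kcnn4* was beside *Kcnk13* at 57.9. At 4 h the separation of *Kcnk13* (65.3) from *Kcnk6* (65.5) was lost with this length. At 1 h *Kcnj2* was at 2.22 ± 0.447 and *Kcna3* at 2.56 ± 0.329 FPKM by coding length, and at 4 h the pair stood apart at 3.74 ± 0.547 and 0.968 ± 0.306 FPKM.

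Most potassium channel genes were not measurable in these cells. Of 102 listed genes for pore (78) and auxiliary (24) subunits, 44 had no count in any library and 71 had at most 3 counts in every library, while 12 were abundant enough to be tested. Besides the 6 members these were *Kcnj10*, *Tmem175*, *Kcnq1*, *Kcnn1*, *Kcnk12* and *Kcnab1*. Of the 11 without *Kcnj2*, 3 were called at 1 h (2 higher, 1 lower), 5 at 4 h (1 higher, 4 lower) and 5 between 4 h and 1 h (all lower). These counts, 27.3%, 45.5% and 45.5% of the 11, lay near the 20.1%, 40.0% and 38.5% called in either direction over all genes. Of all genes, 10.1% were called lower at 1 h, 20.4% at 4 h and 19.8% between 4 h and 1 h. The median log2 fold change of the 11 was 0.12 at 1 h, -0.23 at 4 h and -0.37 between 4 h and 1 h. Over all genes it was -0.0049, 0.0042 and 0.0074.

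Of these 11, *Kcnj10* was the one called lower at both times, and it encodes another inward rectifier, Kir4.1. Its normalized counts were 554, 569, 410 and 504 in untreated BMDMs, 354, 372, 230 and 290 at 1 h, and 184, 191, 141 and 133 at 4 h. The 3 groups did not overlap. The log2 fold change was -0.71 ± 0.16 at 1 h (SE, adjusted p = 0.0051) and -1.66 ± 0.17 at 4 h (adjusted p = 1.6e-06). While *Kcnj2* was higher at 4 h than at 1 h, *Kcnj10* fell by 0.95 ± 0.17 on the log2 scale (adjusted p = 0.00042). *Tmem175*, which encodes a potassium channel of lysosomes, had a log2 fold change of 0.04 ± 0.07 at 1 h (adjusted p = 0.752) and -0.43 ± 0.07 at 4 h (adjusted p = 0.00012). The other 4 genes, *Kcnq1*, *Kcnn1*, *Kcnk12* and *Kcnab1*, had at most 30.4 normalized counts on average in any group and were not called.

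**Figure D3:**
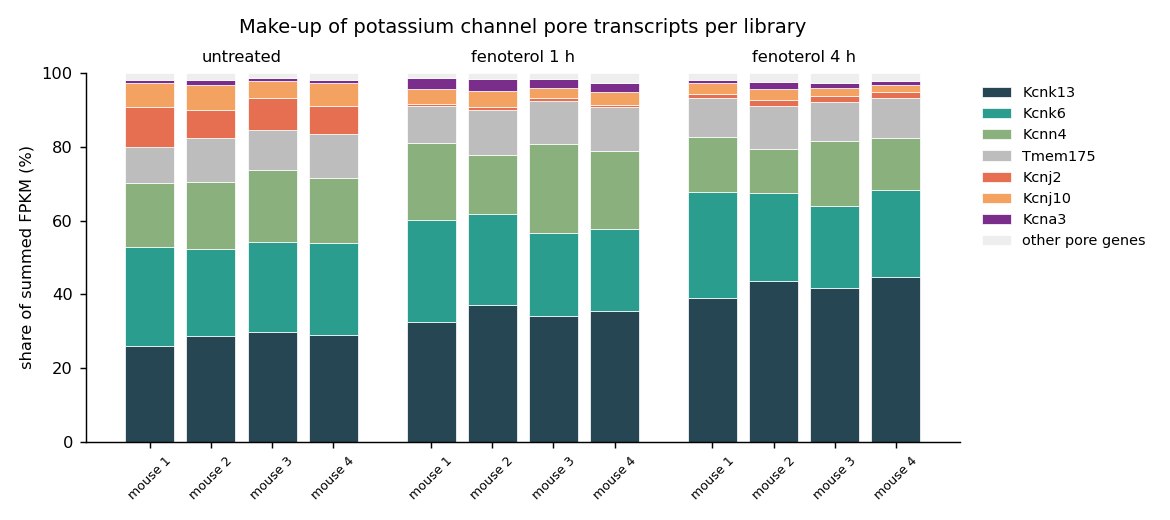
Share of each gene in the summed FPKM of the 78 listed pore genes (y axis, %), with 1 bar for each library, grouped by treatment (x axis). *Kcnj2* took 8.62% of the sum in untreated BMDMs, 0.663% after 1 h and 1.46% after 4 h, and *Kcnk13* took 28.4%, 34.8% and 42.2%.

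The 5 pore-forming members made up most of the pore transcripts, 80.9% ± 1.66 (SD, n = 4) of the summed FPKM in untreated BMDMs, 82.8% ± 1.42 after 1 h and 84.2% ± 1.02 after 4 h. The sum itself was 79.5 ± 1.92 FPKM in untreated BMDMs, 79.1 ± 1.72 after 1 h and 60.4 ± 2.08 after 4 h. Without *Kcnj2* it was 72.6 ± 1.46, 78.5 ± 1.69 and 59.5 ± 2.06 FPKM. These sums depend on the scaling and on the length used. Shares of a sum are not independent of each other, and the higher share of *Kcnk13* at 4 h came with a smaller sum. The share of *Kcnk6* was 24.9%, 24.3% and 24.5% in the 3 groups.

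The genes whose log2 normalized counts followed those of *Kcnj2* most closely over the 12 libraries were *Ccl3* (Pearson r = 0.984), *Crlf3* (0.979), *Ptafr* (0.979), *Wsb1* (0.977) and *Gtf3c4* (0.977), of 10289 genes with a mean of at least 50 normalized counts. This list depends on the measure: by Spearman's rho the same genes ranked 8, 65, 128, 11 and 19. The libraries share 3 treatment groups, so these values describe the group means as much as the single libraries. Of these 5 genes, *Ccl3* had the size of change most similar to that of *Kcnj2*. It had 851 ± 156 (SD, n = 4) normalized counts in untreated BMDMs, 67.7 ± 9.36 after 1 h and 119 ± 27.9 after 4 h. In *Crlf3* the log2 fold change was only -0.52 at 1 h and -0.44 at 4 h. Of the other members, *Kcnk6* had r = 0.345 with *Kcnj2*, *Kcnn4* 0.142, *Kcnab2* -0.358 and *Kcnk13* -0.801 (Spearman's rho 0.189, -0.259, -0.441 and -0.671, with the sign turned for *Kcnn4*), and *Kcna3* was below the level limit for this comparison.

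Potassium channels work beside pumps, cotransporters and calcium entry channels, and these were examined as lists. Of 10 tested genes for potassium pumps and cotransporters, 2 were called at 1 h (1 higher, 1 lower) and 5 at 4 h (3 higher, 2 lower), beside 20.1% and 40.0% of all genes. The potassium-chloride cotransporter gene *Slc12a4* rose at both times (log2 fold change 0.46 at 1 h and 1.33 at 4 h). The pump regulator gene *Fxyd5* was higher at 4 h (0.60), and *Fxyd2*, another gene of its family, was lower at both times (-0.75 and -0.94).

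KCa3.1, the product of *Kcnn4*, carries calmodulin as its calcium sensor. Of the genes for this sensor, *Calm2* was lower at 4 h (log2 fold change -0.28, adjusted p = 0.016), and *Calm3* had values of 0.08 and 0.06, neither called.

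Among 11 tested genes for calcium entry, 1 was called at 1 h, *Orai3* (log2 fold change -0.34), beside 20.1% of all genes. At 4 h 9 were called, 5 higher and 4 lower, where 40.0% of all genes were called (19.7% higher, 20.4% lower). The store-operated channel genes *Orai1* (0.35) and *Orai2* (0.55) and the calcium sensor genes *Stim1* (0.22) and *Stim2* (0.32) were higher at 4 h, together with *Trpm2* (0.28). *Orai3* (-0.19), *Trpm4* (-0.47), *Trpv2* (-0.33) and *Trpv4* (-0.52) were lower at 4 h.

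In the list for potassium efflux and the NLRP3 inflammasome, all 11 genes were tested, with 3 called at 1 h (2 higher, 1 lower) and 7 at 4 h (2 higher, 5 lower), beside 20.1% and 40.0% of all genes. *Il1b*, the gene of the cytokine that caspase-1 matures, rose from 69.6 ± 28.9 normalized counts (SD, n = 4) to 1668 ± 347 at 1 h and 656 ± 187 at 4 h. *Nlrp3* was raised at 1 h only against untreated, with a log2 fold change of 0.99 there and one of 0.16 at 4 h (adjusted p = 0.121), and like *Kcna3* it was lower at 4 h than at 1 h (-0.83). *P2rx7*, which encodes the ATP-gated channel upstream of potassium efflux, was lower at both times (-0.26 and -0.72), and *Nek7*, a partner of NLRP3, was lower at 4 h (-0.64). *P2rx4* (-0.35), *Pycard* (-0.22) and *Casp1* (-0.25) were lower and *Il18* (0.34) was higher at 4 h.

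**Figure D4:**
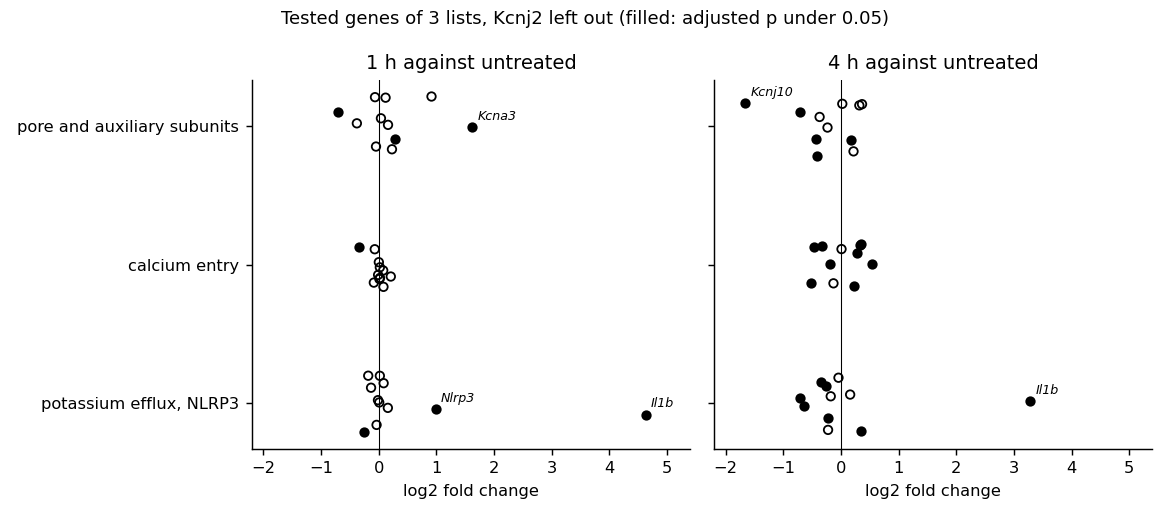
Log2 fold change (x axis) of the tested genes of 3 lists (y axis: channel subunits, calcium entry, potassium efflux and NLRP3) at 1 h and at 4 h against untreated, without *Kcnj2*. Each circle is 1 gene, filled where the adjusted p was under 0.05, and its height within a list has no meaning. *Il1b* (4.63 at 1 h and 3.28 at 4 h) lay farthest to the right and *Kcnj10* (-1.66 at 4 h) farthest to the left.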

How the data were processed

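RNA was measured in 12 libraries of BMDMs from 4 mice in 3 groups. The authors mapped single-end reads to GRCm38 with TopHat2 2.0.11 and counted them per gene with HTSeq 0.8.0, and they deposited raw counts, whole numbers per gene and library with no normalization. The strand option and annotation release are not given in the sources used here. No exon of a member overlapped another gene on the opposite strand in GENCODE M21, from which symbols were taken. At most 1.33% of the 50-base stretches in the transcripts of a member also occurred in another gene.

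From the counts, edgeR 4.0.16 in R 4.3.3 gave the filter (filterByExpr), TMM scaling and quasi-likelihood tests in 1 fit over 12 libraries with a mean for each group and no covariate, with p-values adjusted over 12386 genes in each comparison. Each SE was derived from this test, as the absolute log2 fold change divided by the square root of its F statistic. This holds for *Kcnj2* too, whose p-value is not given. The study used vsn and limma, and vsn was not used here. Libraries of one number come from the same mouse by their titles, and the deviations of same-mouse libraries from the group means had r of 0.290 to 0.561 (12 pairs), those of different mice -0.304 to 0.0912 (36 pairs). Replicates differed beyond counting error. The tests were tried first on simulated counts. The members and gene lists were chosen with earlier results of these data known. Named are the 6 members, called genes of each list and the 5 genes most like *Kcnj2*. Results for some listed genes are not reported here. Alternatives were DESeq2 1.42.0, limma-voom (limma 3.58.1), RLE or library-size scaling, other filters, 2 groups only, the mouse as a block and leaving out each library.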

Additional observations from a re-analysis of the deposited data

Results flagged for a closer look

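For 3 genes, the change at 4 h differed from the change at 1 h when the difference itself was tested with edgeR's quasi-likelihood test. The log2 difference between 4 h and 1 h was -0.86 for *Kcnn4*, -1.40 for *Kcna3* and -0.37 for *Kcnk6*, and each was lower at 4 h in 4 of 4 mice. Because both times are set against the same untreated libraries, this is the same as a direct comparison of 4 h with 1 h. *Kcnk13* (-0.11) and *Kcnab2* (-0.10) did not pass this test, and *Kcnj2* was not tested. No library stood apart from its group in Dixon's test of 21 groups of 4 normalized counts (the 6 members and *Kcnj10*), where chance would give about 1.05.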

How the results depend on the processing

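Of the 237 fold changes of the 5 tested members under the alternatives, 227 kept their direction and their side of the threshold, and *Kcnj2*, which was not tested, kept its direction in all 48. With 1 library left out at a time, the log2 fold change of *Kcnk6* at 1 h ran from -0.12 to 0.0044, and was above 0 without untreated mouse 1 (0.0013) and without 1 h mouse 4 (0.0044). That of *Kcnab2* at 4 h ran from -0.032 to 0.087, and was below 0 without untreated mouse 4 (-0.0074), without 4 h mouse 1 (-0.032) and without 4 h mouse 3 (-0.012). Neither was called. *Kcnk13* at 4 h ran from 0.13 to 0.21 and lost its call without any 1 of the 5 libraries named in the report, with adjusted p up to 0.109, so the count of channel genes called at 4 h fell from 5 to 4 there. With the mouse as a replicate block no call among the members changed, and *Kcnk13* at 4 h had a log2 fold change of 0.18 with an adjusted p of 0.011. The counts of channel genes called stayed at 3, 5 and 5 with this block, which called 27.0%, 47.4% and 46.6% of all genes.

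With a mean of at least 50 deposited counts required, *Kcna3* was not tested and the counts of channel genes called were 2, 5 and 4. DESeq2, which called 34.1% of all genes at 4 h, and the fit without a filter each called 6 channel genes there. Scaling by library size alone moved the median gene by -0.069 at 1 h, 0.024 at 4 h and 0.092 between them on the log2 scale. It changed the split of all calls from 1242 higher and 1251 lower to 949 and 1969 at 1 h, and from 2320 and 2453 to 3503 and 1830 between 4 h and 1 h. No call among the members changed with it. *Kcna3* had the fewest counts among the 5 tested members, 18.8 to 91.2 normalized counts, and the largest SE.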
